A study of Homo sapiens with 24 samples.

Results

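The long non-coding RNA (lncRNA) annotations of human chromosomes 4, 13 and 18 were followed in HEK293, an established cell line of human embryonic kidney origin, with a nuclear lamin overexpressed. The deposited tables list 175946 annotated regions, and 9057 of them were taken: lncRNA intervals on these chromosomes, at most 200000 bp long, with names that begin with lnc-, NONHSAG or HSALNG. The rule itself used no measured value, although earlier results of these data were known when it was set. Chromosome 4 held 4480 of the intervals, chromosome 13 held 2594 and chromosome 18 held 1983. They carried 6381 distinct names, their median length was 4565 bp (170 to 199384), and many overlapped one another, so that intervals sharing a base on either strand were joined into 4782 loci.

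The 4 groups were HEK293 cells overexpressing eGFP (the fluorescent control protein, GFP below), LMNA, LMNB1 or LMNB2. All carry the genotype label Wild Type, and cells of each group gave 3 small RNA libraries and 3 ATAC-seq libraries, 24 libraries in all. ATAC-seq counts fragments that a transposase cuts from open chromatin, and the RNA was total RNA enriched for small species. The vector, the length of overexpression and the lamin isoform are not given in the labels, a single line was used, and the labels do not say whether replicates were separate cultures, so p-values measure the spread between these libraries, which may be technical. The batch label is constant within each assay.

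Lamins are intermediate filament proteins that form a meshwork under the inner nuclear membrane. LMNA encodes the A-type lamins A and C, and LMNB1 and LMNB2 encode the B-type lamins. Large stretches of chromatin called lamina-associated domains touch this meshwork. They are poor in genes, mostly silent and long on chromosomes such as 4, 13 and 18, which lie near the nuclear edge in many cell types, while the gene-dense chromosome 19 lies in the interior. The annotated lncRNAs of these chromosomes are mostly unstudied transcripts, and some of their intervals enclose short RNAs such as snoRNAs, microRNAs and tRNAs. The tip of the short arm of chromosome 4 holds a cluster of genes for C2H2 zinc-finger proteins, a family with many transcriptional repressors that silence transposable elements.

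The small RNA results turn on that tip, so the starts of some of its zinc-finger genes are shown. The sequences are RefSeq promoter entries (GRCh38.p14, 250 bases before to 50 after the gene start, strand of the gene). Capitals mark CCAATCAG, an extended CCAAT box, which was searched on both strands.

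ZNF595, chr4:53071-53370, plus strand: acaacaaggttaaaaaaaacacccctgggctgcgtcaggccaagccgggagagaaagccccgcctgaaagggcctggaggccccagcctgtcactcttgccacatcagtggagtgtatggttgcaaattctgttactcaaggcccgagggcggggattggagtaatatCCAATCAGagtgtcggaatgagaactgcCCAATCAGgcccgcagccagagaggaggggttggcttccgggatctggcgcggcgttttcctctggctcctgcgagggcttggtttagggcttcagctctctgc
ZNF141, chr4:337564-337863, plus strand: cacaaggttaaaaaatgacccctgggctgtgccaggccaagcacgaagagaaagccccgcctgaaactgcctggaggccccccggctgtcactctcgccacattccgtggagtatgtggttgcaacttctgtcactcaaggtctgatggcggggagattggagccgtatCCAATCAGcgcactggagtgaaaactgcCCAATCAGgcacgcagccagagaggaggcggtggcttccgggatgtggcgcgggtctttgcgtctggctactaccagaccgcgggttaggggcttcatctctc
ZNF718, chr4:127871-128170, plus strand: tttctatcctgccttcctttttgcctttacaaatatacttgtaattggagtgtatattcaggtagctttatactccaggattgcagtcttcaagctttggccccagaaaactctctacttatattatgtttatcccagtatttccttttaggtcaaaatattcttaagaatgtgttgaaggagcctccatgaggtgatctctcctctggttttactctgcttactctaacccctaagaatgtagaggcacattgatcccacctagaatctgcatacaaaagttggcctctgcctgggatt

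The ZNF595 entry lies inside the interval lnc-ZNF732-9 and the ZNF718 entry inside NONHSAG037195.2, both of which had more small RNA counts in the LMNB2 libraries. The ZNF141 entry lies inside lnc-ZNF732-10 and lnc-ZNF732-3, which had too few counts to be tested. The called intervals that rose overlapped 10 RefSeq genes, among them ZNF721, and 3 of the 10 had a promoter entry. Of these, ZNF595 and ZNF718 are shown beside their neighbour ZNF141, so the entries shown are a choice and not the full set. ZNF595 and ZNF141 each hold the 8 letters in 2 places and share a run of 20 identical bases, while ZNF718 holds no copy and shares at most 10 bases with ZNF595. Of 35116 promoter entries of the same length, 1393 (3.97%) hold the letters at least once and 171 (0.487%) at least 2 times. A match of letters is a description and not a binding site.

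Levels are given as CPM, counts brought to a common library size with edgeR's TMM factors over the whole table. Small RNA totals ran from 132507051 to 195074742 counts per library and ATAC totals over the feature windows from 156043245 to 290158229. The share of ATAC window counts on the mitochondrial genome was 39.9 to 47.5% with GFP, 39.4 to 44.1% with LMNA, 32.8 to 34.1% with LMNB1 and 24.5 to 30.7% with LMNB2. GFP replicates 1 and 3 had the outlying small RNA scaling factors, 0.631 and 1.31, against 0.878 to 1.16 in the others. Regions over the overexpressed genes checked the labels: 8 of 8 tested small RNA regions over LMNB2 and 3 of 5 over LMNB1 were higher in their own group, and in ATAC 1 of 6 tested windows over LMNA, 3 of 6 over LMNB1 and 2 of 8 over LMNB2 were called higher in theirs, the top window of each gene by a log2 fold change of 8.65 to 8.73. The single tested small RNA region over LMNA was not called (log2 fold change -0.10, edgeR adjusted p = 0.995). MicroRNA loci known from muscle, pluripotent, nerve, blood and mesenchymal cells had means of 0 to 2 counts where listed, while MIR17, MIR20A, MIR92A1 and MIR21 had 321 to 4307.

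Most of these lncRNA intervals gave next to no small RNA. In 1523 of the 9057 no library had a count, and 1106 (12.2%, in 546 loci) passed the filter on low counts and were tested. The same naming and length rule gave 18.3% tested on the gene-dense chromosomes 16, 17, 20 and 22, 24.99% on chromosome 19 and 14.8% on the other chromosomes. The median interval had 0.000643 CPM per kb, compared with 0.00201 on chromosomes 16, 17, 20 and 22 and 0.00403 on chromosome 19. The intervals of the gene-poor chromosomes were thus fewer in reads per length. Of the 425 intervals that enclose a short RNA of the table, 54.4% were tested, against 10.1% of the 8632 that enclose none. In these bulk libraries, fewer cells making an RNA and less of it per cell cannot be told apart.

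Nearly all counts came from a few loci with a short RNA inside. Taking the fullest interval of each locus, lnc-RPL17-2 (chr18:49488464-49492561) alone held 84.4% of the counts of all 4782 loci, and the first 10 loci held 97.5%. Loci with a short RNA inside, 207 in number, held 97.3%. By contrast 437 loci had a mean of 10 or more counts per library and 2919 had a mean under 1. The summed loci took 0.654% ± 0.0897 of all small RNA counts with GFP, 0.670% ± 0.0151 with LMNA, 0.641% ± 0.0180 with LMNB1 and 0.641% ± 0.0227 with LMNB2 (SD, n = 3), and every lamin group lay within the GFP range of 0.590 to 0.757%.

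**Figure D1:**
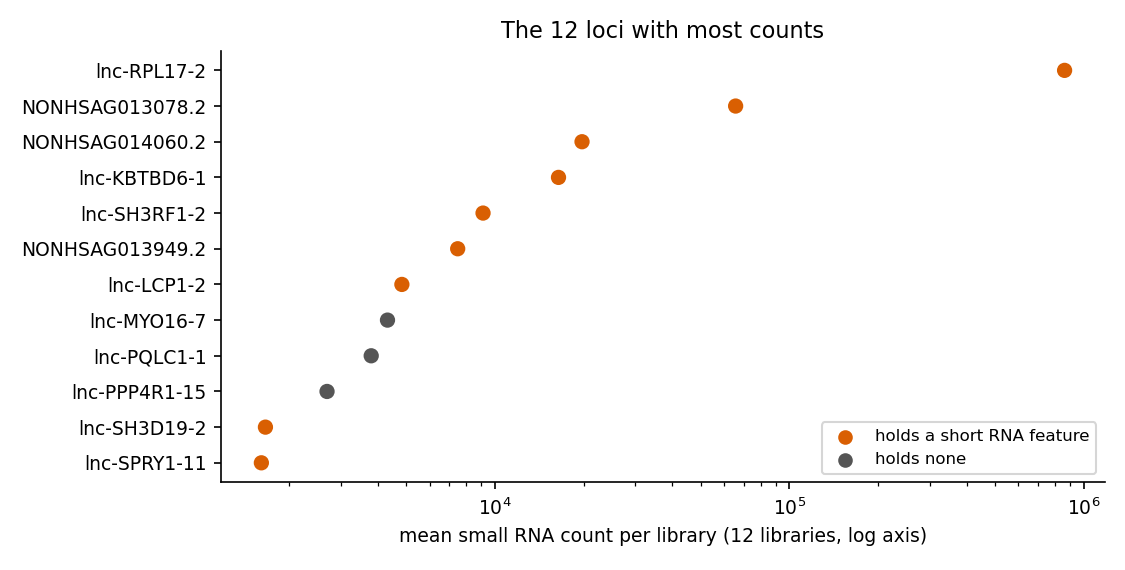
Mean small RNA count per library (12 libraries, log axis) of the 12 lncRNA loci with most counts. Orange points hold a short RNA of the table and grey points hold none; lnc-RPL17-2 stands at 861000 counts, and 3 of the 12 loci hold no annotated short RNA.

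The interval lnc-RPL17-2 lies over RPL17, the gene of a protein of the large ribosomal subunit, whose introns carry the box C/D snoRNAs SNORD58A, SNORD58B and SNORD58C. Such snoRNAs guide 2′-O-methylation of ribosomal RNA. Its best covered interval (chr18:49491238-49492504) stood at 9447, 4721 and 3201 CPM with GFP, 4996, 5423 and 5497 with LMNA, 4388, 4118 and 4507 with LMNB1, and 3782, 4315 and 4491 with LMNB2. The lamin libraries all lay between the lowest and the highest GFP library, and none of the contrasts was called (LMNB2 log2 fold change -0.46 ± 0.33 SE, edgeR adjusted p = 0.455).

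On chromosome 13, NONHSAG013078.2 (chr13:27254387-27256285) lies over RPL21, another gene of the large subunit, with the snoRNAs SNORD102 and SNORA27 inside. It had 692, 452 and 290 CPM in GFP and 366, 407 and 407 in LMNB2, and SNORD102 gave a mean of 65640 of its 65700 counts. SNORA27, a box H/ACA snoRNA of the class that guides pseudouridylation, had a mean of 62.3. NONHSAG014060.2 covers TM9SF2, the gene of a multi-pass membrane protein, and its counts came from a Y RNA copy on the opposite strand. Y RNAs are small Pol III transcripts bound by the Ro60 protein. It stood at 145, 88.3 and 94.1 CPM with GFP, 102, 115 and 151 with LMNA, 138, 142 and 148 with LMNB1, and 118, 118 and 164 with LMNB2, with overlapping groups.

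That a Y RNA on one strand fills an lncRNA interval on the other shows that strand did not enter the counting. In all 15 pairs of an interval and a short RNA of at least 10 mean counts on the opposite strand (9 distinct short RNAs), the interval had at least as many counts as the short RNA in all 12 libraries, as it did in the 56 pairs on one strand. The name of an interval therefore says where counts fell and not which transcript gave them. lnc-KBTBD6-1 had a mean of 16440 counts, of which 16400 lay on tRNA-Glu-TTC-1-2, a tRNA that decodes glutamate codons. lnc-SH3RF1-2 had 9111, of which 9021 lay on another Y RNA copy. lnc-SPRY1-11 had 1609, of which 1576 lay on tRNA-Cys-GCA-1-2, a cysteine tRNA, and lnc-SH3D19-2 had 1661, of which 1621 lay on SNORD73A, a snoRNA on the opposite strand. None of these short RNAs was called under any lamin.

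The interval lnc-LCP1-2 (chr13:46372028-46387257) lies in RUBCNL, a gene of autophagosome maturation, and holds a U2-like snRNA copy (RNU2-6P in RefSeq), U2 being the spliceosomal RNA that pairs with the intron branch site. It had 20.9, 33.7 and 8.42 CPM with GFP, 7.84, 33.5 and 8.21 with LMNA, 31.7, 40.6 and 38.2 with LMNB1, and 49.4, 51.2 and 51.5 with LMNB2. All LMNB2 libraries were above all GFP libraries, but GFP and LMNA libraries varied widely and the difference was not called (log2 fold change 1.27 ± 0.61 SE, edgeR adjusted p = 0.277). Copies of U2 can share reads, so the source copy is uncertain.

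Among the 8 loci of highest level per length, 3 hold no annotated short RNA of the table. lnc-GRPEL1-4 and lnc-ARHGAP24-4 lie on the 7SK pseudogenes RN7SKP36 and RN7SKP48, 7SK being the RNA that holds back the elongation factor P-TEFb, and reads of the parent gene can be counted there. They differed from GFP by log2 fold changes of 0.43 and 0.10 in LMNB2 and were not called. GFP replicate 3 held the highest level of lnc-GRPEL1-4 (0.868 CPM, against 0.240 and 0.309 in the other GFP libraries and 0.618 to 0.678 in LMNB2), and without it the LMNB2 log2 fold change was 1.29 (edgeR adjusted p = 0.000959). lnc-ZBTB7C-6 lies on MTCO2P2, a nuclear copy of a mitochondrial cytochrome oxidase gene, inside SMAD2, a signal transducer of the TGF-beta pathway. It had 0.240, 0.323 and 0.327 CPM in GFP and 0.374, 0.486 and 0.519 in LMNB2, which do not overlap, with a log2 fold change of 0.62 ± 0.19 SE and an edgeR adjusted p of 0.0838 (0.74 and 0.0416 without GFP replicate 3).

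The polycistronic microRNA cluster miR-17-92 lies on chromosome 13 within the interval HSALNG0098601 (chr13:91347794-91354600), which covers its host gene MIR17HG. The cluster is known for driving cell proliferation. The table's regions MIR17 to MIR92A1 match the 3p arms extended by 25 bases on each side, so they also take in 7 to 12 bases of the 5p arm. The mature 3p sequences follow, from RefSeq (GRCh38.p14), with the seed (bases 2 to 8) in capitals; miR-19a and miR-19b share a seed, and the others each have their own.

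hsa-miR-17-3p: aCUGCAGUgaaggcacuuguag
hsa-miR-18a-3p: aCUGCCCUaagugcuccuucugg
hsa-miR-19a-3p: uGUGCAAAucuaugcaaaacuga
hsa-miR-20a-3p: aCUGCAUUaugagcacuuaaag
hsa-miR-19b-3p: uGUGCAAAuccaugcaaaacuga
hsa-miR-92a-3p: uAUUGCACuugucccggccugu

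HSALNG0098601 had 43.9, 48.7 and 73.9 CPM with GFP, 39.3, 62.0 and 50.1 with LMNA, 50.3, 48.4 and 52.2 with LMNB1, and 32.9, 34.6 and 33.1 with LMNB2. The 3 LMNB2 libraries were the lowest of the 12, but the interval was not called (log2 fold change -0.73 ± 0.24 SE, edgeR adjusted p = 0.112), except when GFP replicate 1 was left out (-0.88, edgeR adjusted p = 0.0319). Within it, MIR19A fell with LMNB2, with 39, 42 and 162 counts with GFP, 56, 62 and 56 with LMNA, 70, 47 and 52 with LMNB1, and 29, 26 and 18 with LMNB2 (log2 fold change -1.75, edgeR adjusted p = 0.0410). MIR20A fell as well, from 331, 190 and 692 counts in GFP to 216, 202 and 215 in LMNB2 (log2 fold change -0.98, edgeR adjusted p = 0.04998), although GFP replicate 2 lay below all 3 LMNB2 libraries in raw counts. GFP replicate 3 was the highest library for both. MIR17, MIR18A, MIR19B1 and MIR92A1 had log2 fold changes of -0.83, -0.84, -0.43 and -0.79 and were not called. MIR19A and MIR19B1 share the seed, yet the first was called and the second was not, and the difference between them was not tested.

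Of the other listed microRNAs of these chromosomes, MIR15A and MIR16-1, a pair on chromosome 13 lost in many leukaemias, had means of 91.4 and 124 counts over the precursor, and LMNB2 log2 fold changes of -0.44 and -0.76 that were not called. MIR218-1, which lies in an intron of SLIT2 on chromosome 4, had a mean of 557 counts with a GFP range of 176 to 1631 and was not called either. The pluripotency cluster MIR302A to MIR367 and the muscle microRNAs MIR1-2 and MIR133A1 had between 0 and 2 counts in every library. MIR187 had 4 to 14 counts and was not tested.

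Against GFP, LMNB2 changed 22 of the 1106 tested intervals in small RNA, 11 higher and 11 lower (1.99%; over all 33893 tested regions 2.66% were called, 1.91% higher and 0.752% lower). The 22 intervals lie in 11 loci, 5 that rose and 6 that fell. Of the 11 risers, 9 lie in the first 500 kb of chromosome 4, in 4 loci, among 11 intervals tested there. That bound was set after the values were seen. The other 2 share a locus within the first 108520 bp of chromosome 18. An unadjusted p under 0.05 was met by 184 intervals, 36 higher and 148 lower (16.6%; over all tested regions 19.9%, 9.58% higher and 10.4% lower). The share called was near that of the whole table. With total counts in place of TMM scaling, 12 were called, 11 higher and 1 lower. The number also moved with single libraries, to 53 without GFP replicate 3, 35 without GFP replicate 1, and 12, 4 and 5 without LMNB2 replicates 1, 2 and 3.

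**Figure D2:**
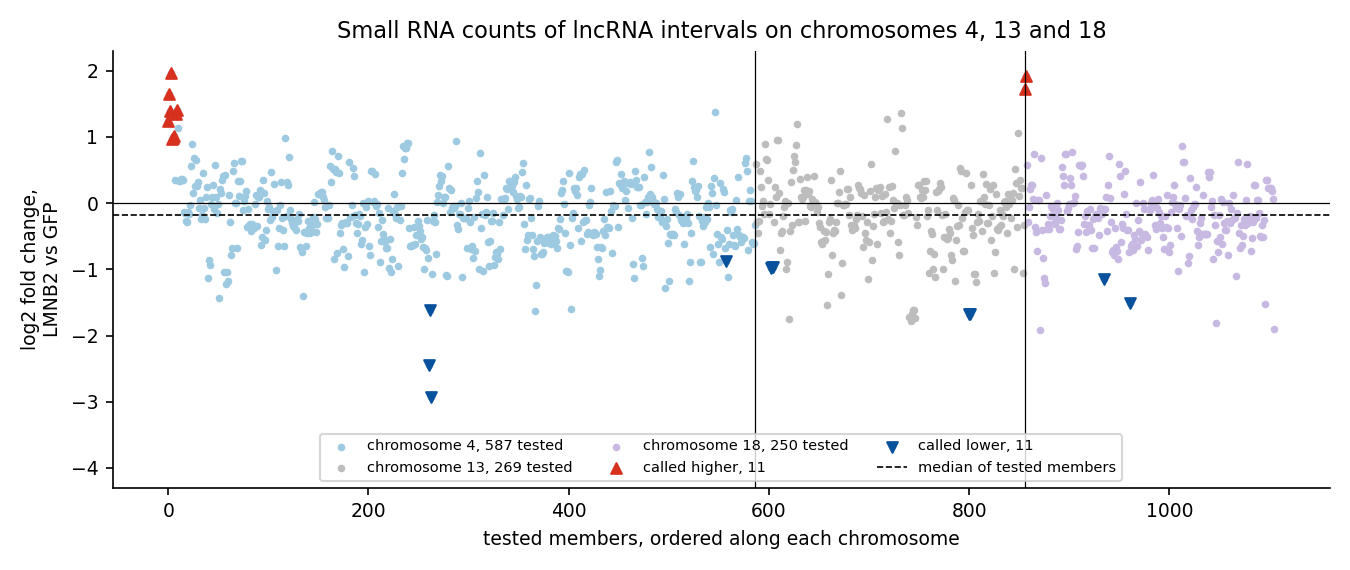
Log2 fold change of LMNB2 against GFP in small RNA for the 1106 tested lncRNA intervals, in order along chromosomes 4, 13 and 18 (vertical lines part the chromosomes). Red triangles are the 11 intervals called higher, 9 of them at the start of chromosome 4, blue triangles the 11 called lower, and the dashed line is the median of -0.18, which is 0.07 when libraries are scaled by total counts.

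The riser of lowest adjusted p was NONHSAG037195.2 (chr4:124451-202331, plus strand), which covers ZNF718, a zinc-finger gene. Its CPM was 0.412, 0.595 and 0.383 with GFP, 0.485, 0.421 and 0.614 with LMNA, 0.501, 0.416 and 0.412 with LMNB1, and 1.10, 1.24 and 1.31 with LMNB2. Every LMNB2 library was above every other library, from 48, 81 and 68 raw counts in GFP to 182, 193 and 184 in LMNB2. The log2 fold change was 1.39 ± 0.19 SE (edgeR adjusted p = 0.00169), and the edgeR contrasts of LMNA and LMNB1 gave 0.13 and -0.06 and were not called.

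The interval lnc-ZNF732-9 (chr4:49243-88512, minus strand) overlaps ZNF595, the zinc-finger gene nearest the telomere here, and contains the first promoter printed above. Its CPM was 0.163, 0.169 and 0.192 with GFP, 0.168, 0.214 and 0.205 with LMNA, 0.181, 0.135 and 0.209 with LMNB1, and 0.398, 0.371 and 0.483 with LMNB2. The LMNB2 libraries stood apart from the other 9 (log2 fold change 1.24 ± 0.20 SE, edgeR adjusted p = 0.00764). The gene and the interval lie on opposite strands, and which of them gave the reads cannot be told from these counts. The shorter NONHSAG037191.2 (chr4:73492-85684), in the same locus, rose by 1.64 ± 0.31 SE on a mean of 11.4 counts.

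NONHSAG037205.2 (chr4:456027-474156, minus strand) overlaps ZNF721, a zinc-finger gene, and ABCA11P, a transporter pseudogene. Its CPM was 0.146, 0.125 and 0.147 with GFP, 0.180, 0.228 and 0.211 with LMNA, 0.272, 0.214 and 0.186 with LMNB1, and 0.380, 0.429 and 0.306 with LMNB2. Here the LMNA and LMNB1 libraries also lay above all 3 GFP libraries, with log2 fold changes of 0.56 and 0.68 that were not called (edgeR adjusted p = 0.895 and 0.777), and the LMNB2 libraries lay above them all. In LMNB2 the log2 fold change was 1.41 ± 0.21 SE (edgeR adjusted p = 0.00422). The 4 intervals named lnc-ZNF721-1 in this locus rose by log2 fold changes of 0.97 to 1.35, the best covered of them from 0.515, 0.647 and 0.372 CPM in GFP to 1.01, 1.06 and 0.931 in LMNB2; these intervals and NONHSAG037205.2 share reads. A shorter interval of the same name, chr4:467302-474139, reached 1.14 with an edgeR adjusted p of 0.0838 and was not called.

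Between these lies lnc-ZNF718-5 (chr4:212611-255474, plus strand), over the zinc-finger pseudogene ZNF876P. Its CPM was 0.0344, 0.0588 and 0.0394 in GFP and 0.151, 0.224 and 0.149 in LMNB2, which do not overlap, on a mean of 11.9 counts. It rose by 1.96 ± 0.36 SE (edgeR adjusted p = 0.0154). lnc-ZNF718-5, NONHSAG037191.2 and the lnc-ZNF721-1 intervals fall outside the rule for naming and were chosen after their values were seen, as was the grouping by the first 500 kb.

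That stretch holds 33 intervals in 12 loci, of which 11 (4 loci) were tested, and the 22 others had too few counts. All 11 had a positive LMNB2 log2 fold change, 9 were called, in all 4 loci, and in 10 every LMNB2 library was above every GFP library, against 12.1% of all tested regions. The count filter favours intervals that are high in 1 group. Both lnc-ZNF718-5 and NONHSAG037191.2 had at most 10 counts in any library outside LMNB2 and passed through the LMNB2 libraries. With no count filter 29 were tested, of which 10 were called and 3 were lower in LMNB2. The median log2 fold change of the 11 was 1.24 in LMNB2, 0.24 in LMNA and 0.30 in LMNB1, beside -0.18 in LMNB2 for the 1095 tested intervals elsewhere on the 3 chromosomes. Per library, their median log2 level relative to the GFP mean was 0.05, 0.33 and -0.19 with GFP, 0.16, 0.46 and 0.09 with LMNA, 0.27, 0.26 and 0.23 with LMNB1, and 1.15, 1.34 and 1.08 with LMNB2. The LMNB2 libraries were the only ones above 1. NONHSAG037206.2, the other interval not called (chr4:440034-444456), had 0.35, and the next tested locus outward, lnc-ZNF721-3 (chr4:512614-535996), had 0.33. The 11 risers on chromosomes 4 and 18 were called with total counts, with DESeq2's size factors and with DESeq2's own test. With only the GFP and LMNB2 libraries fitted, 1 of the 11 was called, and the highest adjusted p was 0.0941. Without LMNB2 replicates 2 or 3 only 4 and 5 of them were called, and all 11 stayed higher.

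On chromosome 18 the riser was NONHSAG023148.2 (chr18:106576-108520, minus strand), which overlaps no RefSeq gene. Its CPM was 0.0945, 0.0735 and 0.101 with GFP, 0.106, 0.0828 and 0.134 with LMNA, 0.0725, 0.0734 and 0.110 with LMNB1, and 0.283, 0.390 and 0.220 with LMNB2. LMNB2 was again the only group clear of GFP (log2 fold change 1.72 ± 0.28 SE, edgeR adjusted p = 0.00764). lnc-TUBB8P12-3 covers nearly the same bases and rose by 1.92 ± 0.33 SE. The window over it was among the 5 loci of highest ATAC level per kb on the 3 chromosomes, as given below.

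The fallers were spread over 6 loci, and all rested on modest counts. lnc-TENM3-3 (chr4:180058916-180250194, plus strand), a long interval over uncharacterised lncRNA genes, had 0.679, 0.492 and 0.456 CPM with GFP, 0.485, 0.442 and 0.368 with LMNA, 0.525, 0.502 and 0.424 with LMNB1, and 0.253, 0.333 and 0.298 with LMNB2. LMNB2 lay below all other libraries (log2 fold change -0.87 ± 0.19 SE, edgeR adjusted p = 0.0294). lnc-EEF1AKMT1-3 (chr13:20702322-20704179, minus strand) lies in IL17D, the gene of an interleukin-17 family cytokine. It had 0.481, 0.514 and 0.434 CPM with GFP, 0.436, 0.359 and 0.620 with LMNA, 0.296, 0.434 and 0.458 with LMNB1, and 0.205, 0.256 and 0.270 with LMNB2. All 3 overlapping intervals of this name were called, this one with a log2 fold change of -0.97 ± 0.22 SE (edgeR adjusted p = 0.0339).

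lnc-CLDN10-8 (chr13:95301532-95311015, plus strand) holds RNY3P8, a Y RNA pseudogene of RefSeq, and had 0.206, 0.162 and 0.462 CPM with GFP, 0.249, 0.248 and 0.392 with LMNA, 0.199, 0.171 and 0.133 with LMNB1, and 0.0905, 0.0704 and 0.107 with LMNB2. The LMNB1 mean lay between those of GFP and LMNB2, with GFP and LMNB1 libraries overlapping (log2 fold change -0.76, not called). The LMNB2 libraries were below all others (-1.67 ± 0.38 SE, edgeR adjusted p = 0.0349). GFP replicate 3 was the highest library, and without it the LMNB2 log2 fold change was -0.99 and not called (edgeR adjusted p = 0.0766). lnc-POTEC-1 (chr18:14477930-14499303, minus strand) lies over CXADRP3, a pseudogene of the coxsackievirus and adenovirus receptor, near the centromere. It had 0.902, 0.470 and 0.783 CPM with GFP, 0.541, 0.476 and 0.912 with LMNA, 0.537, 0.600 and 0.510 with LMNB1, and 0.386, 0.237 and 0.348 with LMNB2 (log2 fold change -1.15 ± 0.28 SE, edgeR adjusted p = 0.0433). GFP and LMNA overlapped here, and LMNB2 lay below both.

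The 2 loci outside the naming rule complete the fallers and were added after their values were seen. NONHSAG038301.2, lnc-PRDM8-6 and lnc-GK2-4 overlap within ANTXR2, the gene of an anthrax toxin receptor, around a U2 snRNA copy (chr4:80031131-80082294), and fell by 2.45, 1.61 and 2.93 on the log2 scale on means of 9.58, 15.8 and 7 counts. All were also lower in LMNA (log2 fold changes -0.91, -0.58 and -0.91) and in LMNB1 (-1.39, -0.98 and -1.11), without being called there or in the joint test. The count filter matters here too. lnc-GK2-4 had 13, 13 and 11 counts in GFP and at most 12 elsewhere, and NONHSAG038301.2 had 22, 17 and 12 in GFP. Both needed the GFP libraries to pass. lnc-KCTD1-5 (chr18:26018325-26035639), in SS18, the gene of a chromatin-remodelling subunit, fell by 1.52 on a mean of 10.1 counts. The faller calls moved with the settings: 11 of 11 were called with DESeq2's size factors, 1 of 11 with total counts and 0 of 10 tested with only the GFP and LMNB2 libraries, and without LMNB2 replicates 1, 2 or 3 the number was 1, 0 and 0, all 11 staying lower.

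**Figure D3:**
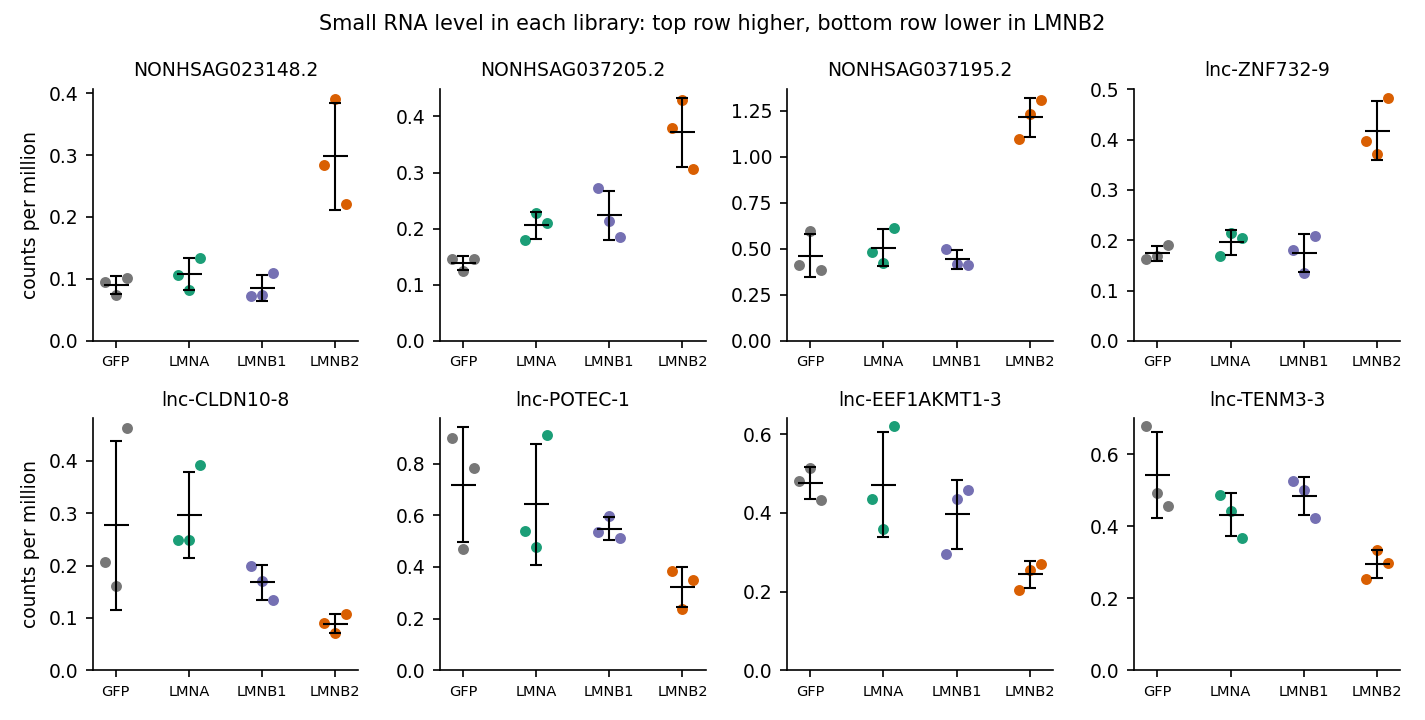
Small RNA CPM in each library (points) of the 8 lncRNA intervals named by rule, with the mean and SD of each group (bars, n = 3). In the top row, called higher in LMNB2, the LMNB2 points stand above the GFP points, and in the bottom row, called lower, they stand below; NONHSAG037205.2 also has LMNA and LMNB1 points above GFP.

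No interval was called in small RNA with LMNA or LMNB1. For LMNA 0 of 1106 were called (0.0% of all tested regions), and 46 had an unadjusted p under 0.05 (4.16%, against 5.46%). The lowest unadjusted p values were those of HSALNG0034479, lnc-CASP6-4 and NONHSAG023789.2. HSALNG0034479 had 6, 3 and 5 counts in GFP and 16, 8 and 16 in LMNA (log2 fold change 1.33 ± 0.41 SE, edgeR adjusted p = 0.882). lnc-CASP6-4, in MCUB, the gene of an inhibitory subunit of the mitochondrial calcium uniporter, stood at -1.05 ± 0.33 SE, and NONHSAG023789.2, over the divergent transcript of the sialyltransferase gene ST8SIA5, at -1.01 ± 0.33 SE, neither of them called. Without GFP replicate 3, 6 intervals were called in LMNA.

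For LMNB1 0 of 1106 were called (0.0384% of all tested regions), and 56 had an unadjusted p under 0.05 (5.06%, against 5.51%). The lowest p was that of lnc-MC2R-5 (chr18:13665858-13726617), over FAM210A, the gene of a mitochondrial membrane protein. It had 0.335, 0.375 and 0.349 CPM in GFP and 0.205, 0.226 and 0.226 in LMNB1, groups that do not overlap and spread little, with a log2 fold change of -0.69 ± 0.17 SE and an edgeR adjusted p of 0.703. Another interval of that name, with nearly the same counts, gave -0.67, and NONHSAG037357.2 on chromosome 4 gave -1.52 ± 0.45 SE and was called with no count filter (-1.49, edgeR adjusted p = 0.0215). Without GFP replicate 3, 2 intervals were called in LMNB1. By DESeq2's test the count was 0 for both lamins.

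In a joint test of whether the 3 lamin groups differ from each other, 10 of 1106 intervals were called, in 6 loci (1.93% of all tested regions), and the number was 29 and 16 without GFP replicates 3 and 1, 6 without LMNB1 replicates 2 or 3, and 5 and 6 without LMNB2 replicates 2 and 3. Of the 10, 9 are risers of chromosomes 4 and 18, led by NONHSAG037195.2 (edgeR adjusted p = 0.000700), with the LMNB2 group mean the highest of the 3. The joint test asks whether the 3 are all alike, and LMNB2 was not tested against LMNA or LMNB1 alone. The remaining interval, lnc-EPSTI1-4 (chr13:42886363-42992296), covers EPSTI1, an interferon-induced gene, and went another way. It had 0.0945, 0.0368 and 0.0676 CPM with GFP, 0.106, 0.0898 and 0.0760 with LMNA, 0.193, 0.104 and 0.133 with LMNB1, and 0.0482, 0.0256 and 0.0568 with LMNB2. The LMNB1 mean was highest and the LMNB2 mean lowest, with LMNA and LMNB1 libraries overlapping (edgeR adjusted p = 0.0485), on a mean of 13.6 counts.

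Beyond the calls, the tested intervals of these chromosomes as a whole were slightly lower in LMNB2. Their median log2 fold change was -0.18, with 393 of 1106 (35.5%) above 0, beside -0.04 over all tested regions. With total counts, which moved the median of all regions from -0.04 to 0.21, the intervals' median was 0.07, so its sign flipped while it stayed below that of all regions. The median was -0.18 on chromosome 4, -0.14 on chromosome 13 and -0.21 on chromosome 18. The same kind of interval on chromosomes 16, 17, 20 and 22 had a median of 0.26, with 61 of 2295 called higher and 2 lower, and on chromosome 19 it was 0.57, with 138 of 948 called, all higher. Intervals on the remaining chromosomes had -0.06.

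Per library, the median log2 level of the tested intervals relative to the GFP mean was 0.04, 0.04 and -0.08 with GFP, -0.05, -0.04 and -0.05 with LMNA, 0.02, -0.05 and -0.02 with LMNB1, and -0.11, -0.15 and -0.13 with LMNB2. The LMNB2 libraries were the 3 lowest, GFP replicate 3 came next, and the groups of LMNA and LMNB1 lay within the GFP range. The corresponding medians of log2 fold changes were -0.08 in LMNA and -0.04 in LMNB1, beside -0.05 and -0.05 over all regions. By length, the 18 tested intervals under 1 kb had a median of 0.30 in LMNB2, with 16 above 0 and none called, and the longer classes had -0.17 to -0.21. Intervals with a short RNA inside had a median of -0.14 with 3 called, all of them lower, and those without one had -0.19 with 19 called. By name, medians were -0.17 for lnc-, -0.20 for NONHSAG and -0.33 for HSALNG intervals. The length bins and name classes therefore do not differ in sign except for the shortest bin.

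**Figure D4:**
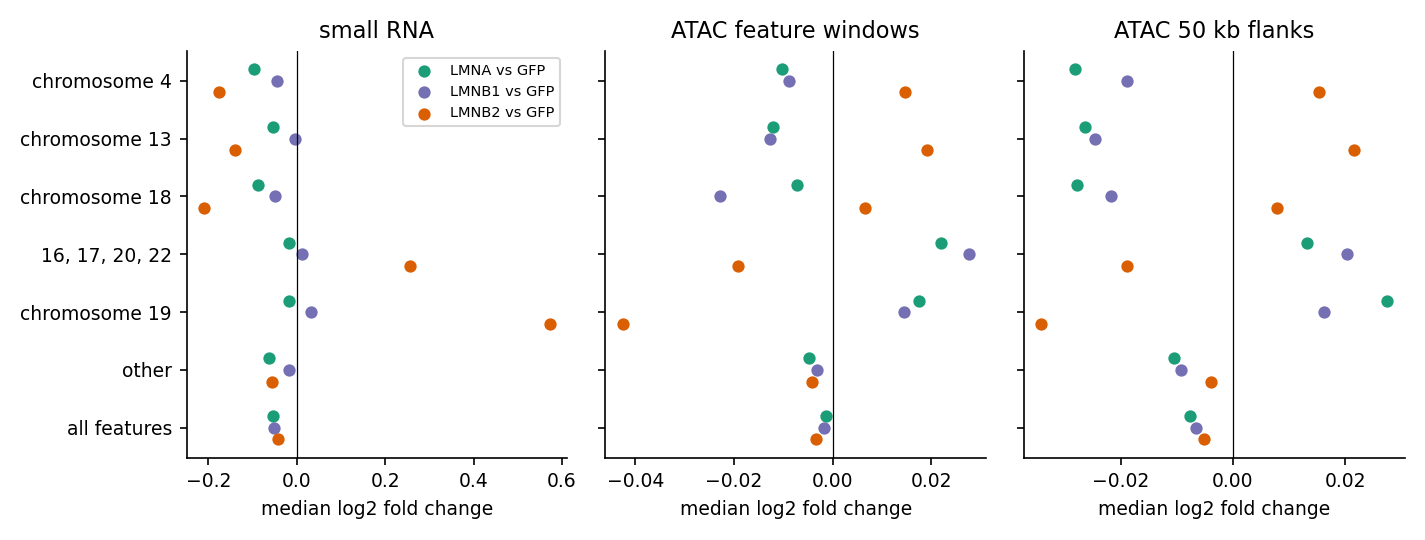
Median log2 fold change against GFP of the tested lncRNA intervals by chromosome group, and of all tested regions, for small RNA, ATAC windows and ATAC 50 kb flanks on separate scales. In small RNA, LMNB2 (orange) lies below 0 on chromosomes 4, 13 and 18 and above 0 on 16, 17, 20, 22 and 19, but total-count scaling moves the small RNA median of chromosomes 4, 13 and 18 together in LMNB2 from -0.18 to 0.07; the ATAC medians lie within 0.05 of 0.

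In ATAC-seq, 8630 of the 9057 intervals passed the filter in a window that extends 125 bp beyond the interval on each side. The intervals had low accessibility per length: the median was 0.0619 CPM per kb, against 0.150 on chromosomes 16, 17, 20 and 22, 0.216 on chromosome 19 and 0.0944 elsewhere. Chromosome 18 was the most accessible of the 3, with 0.0929, followed by chromosome 4 with 0.0592 and chromosome 13 with 0.0484. No interval's window was called under any lamin. The counts were 0 of 8630 for LMNA (0.000611% of all tested windows), for LMNB1 (0.00305%) and for LMNB2 (0.00244%), with 549, 395 and 529 at an unadjusted p under 0.05 (5.19%, 4.78% and 5.72% of all tested windows). The joint test of the 3 lamins called 0 (0.0916% of all tested windows), and DESeq2's tests called 1, 1, 2 and, jointly, 22. Without LMNB1 replicate 3 the joint test called 45, and without GFP replicates 1 or 3 it called 8 and 11.

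Of the 5 most accessible windows per length, 3 had overlapping GFP and LMNB2 libraries. lnc-TUBB8P12-3, at the chromosome 18 tip where small RNA rose, stood at 15.97 CPM per kb, with 31.6, 30.1 and 35.2 CPM in GFP and 33.0, 29.3 and 35.3 in LMNB2 (log2 fold change 0.01). lnc-ZSCAN30-8 (chr18:35240638-35240944) and lnc-PIGN-7 (chr18:62522417-62522871), which overlap no RefSeq gene, stood at 12.6 and 11.9 CPM per kb, with 7.67, 6.98 and 6.61 against 7.23, 6.57 and 7.59 CPM for the first and 9.53, 8.94 and 8.04 against 8.35, 7.53 and 8.18 CPM for the second. Their GFP and LMNB2 libraries overlap.

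The remaining pair of highly accessible windows was lower in LMNB2 without being called. lnc-ZBTB7C-6, on the nuclear copy of a mitochondrial gene, had 10.6, 13.6 and 11.9 CPM with GFP, 8.20, 11.9 and 15.8 with LMNA, 9.27, 9.89 and 6.34 with LMNB1, and 7.18, 8.35 and 6.40 with LMNB2 (log2 fold change -0.72, edgeR adjusted p = 0.862; 0.000401 when only the GFP and LMNB2 libraries were fitted). lnc-MYO16-7 (chr13:109407633-109431010), with no RefSeq gene, had 258, 348 and 328 CPM with GFP, 237, 308 and 276 with LMNA, 217, 214 and 195 with LMNB1, and 167, 205 and 159 with LMNB2 (log2 fold change -0.82 ± 0.15 SE, edgeR adjusted p = 0.748; DESeq2's test called it, with an adjusted p of 7.40e-05). The LMNB1 and LMNB2 libraries lie below all GFP libraries there, and the order of the groups follows that of the mitochondrial share of ATAC counts; whether mitochondrial reads enter these windows was not tested.

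The windows of lowest unadjusted p were read as values only. For LMNA these were HSALNG0098574 (log2 fold change 1.16), lnc-CCKAR-13 (0.96) and HSALNG0036958 (-0.38). For LMNB1 they were lnc-HMGB2-2 (1.11), in GALNT7, a gene of mucin-type glycosylation, HSALNG0098328 (-1.30) and lnc-MZT1-4 (-0.53), in DACH1, a transcription factor gene. For LMNB2 they were lnc-NALCN-2 (1.34), in FGF14, a modulator of sodium channels, NONHSAG039255.2 (0.37), in SMIM31, and HSALNG0036381 (2.302, on a mean of 12 counts). The window of lnc-NALCN-2 had 0.0505, 0.0938 and 0.0826 CPM with GFP, 0.150, 0.148 and 0.169 with LMNA, 0.125, 0.179 and 0.157 with LMNB1, and 0.203, 0.234 and 0.140 with LMNB2. All 3 lamin groups lay above GFP, and none of the 9 differences named here was called. DESeq2's test called HSALNG0036958 and NONHSAG039255.2 (adjusted p = 0.0491 and 0.0461), and total counts called HSALNG0098574, lnc-CCKAR-13 and lnc-HMGB2-2.

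Summed over 1 window per locus, these chromosomes took 1.291% ± 0.0038 of the nuclear window counts with GFP, 1.281% ± 0.0099 with LMNA, 1.293% ± 0.0046 with LMNB1 and 1.319% ± 0.0025 with LMNB2 (SD, n = 3; windows over the 3 lamin genes left out). The 3 LMNB2 libraries, at 1.317 to 1.322%, were above all others, the highest of which was 1.298%. A two-sided exact permutation test of 3 libraries against 3 cannot go below p = 0.1. The median log2 fold changes were of the same small size, -0.01, -0.01 and 0.01 in LMNA, LMNB1 and LMNB2, against 0.02, 0.03 and -0.02 on chromosomes 16, 17, 20 and 22 and 0.02, 0.01 and -0.04 on chromosome 19. With total counts all windows moved up, to a median of 0.09, 0.19 and 0.11 in the 3 lamins, and the intervals of chromosomes 4, 13 and 18 to 0.08, 0.18 and 0.13, so the sign in LMNA and LMNB1 flips with the scaling.

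The 50 kb flanks on both sides of an interval read the accessibility of its neighbourhood, and neighbouring intervals share them. The flanks of 0, 0 and 1 of 9047 intervals were called in LMNA, LMNB1 and LMNB2 (0.00456%, 0.0177% and 0.0353% of all tested flanks), with 639, 470 and 670 at an unadjusted p under 0.05 (7.06%, 5.2% and 7.41% of the intervals, against 6.28%, 5.97% and 8.7% of all tested flanks). Without GFP replicate 3 the counts in LMNA and LMNB2 were 13 and 24, and without LMNB1 replicate 3 they were 4 and 5. Without LMNB1 replicate 1 or LMNB2 replicate 1 the LMNB2 count was 3 and 2. The joint test of the 3 lamins called the flanks of 7 intervals, in 4 loci (0.244% of all tested flanks). In the nearer flanks, 2 of 9057 intervals were called at 5 kb with LMNB2 (0.0668% of all tested flanks), and 1 and 2 of 7671 at 500 bp with LMNB1 and LMNB2 (0.0567% and 0.0616%). The called flank was that of lnc-IRS2-1 (chr13:109400829-109402512), over LINC00399, with 79.8, 108 and 102 CPM with GFP, 73.3, 94.9 and 85.0 with LMNA, 66.6, 65.8 and 60.8 with LMNB1, and 51.8, 64.4 and 49.4 with LMNB2 (log2 fold change -0.80 ± 0.11 SE, edgeR adjusted p = 0.000475). LMNB1 and LMNB2 lay below all GFP libraries. This flank contains lnc-MYO16-7, described above, whose window holds nearly all of the flank's counts, so both results rest on the same reads. The call therefore tells little of the rest of the flank. The window of lnc-IRS2-1 itself had a log2 fold change of 0.00, and the interval had 0 small RNA counts in all 12 libraries, which allows up to 3 counts in each.

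At the tip of chromosome 4, where small RNA rose in LMNB2, no rise in accessibility was called. Of the 31 windows tested there, 26 were lower in LMNB2, 24 in LMNA and 24 in LMNB1 (19, 15 and 11 with total counts), so the lower side was not particular to LMNB2. In LMNB2 the median was -0.14, and 4 had an unadjusted p under 0.05 (5.72% of all tested windows) with none called. The window log2 fold change was 0.01 for lnc-ZNF732-9, -0.07 for NONHSAG037195.2 and -0.24 for lnc-ZNF718-5. All 30 tested 50 kb flanks were lower, by a median of -0.23 in LMNB2, -0.15 in LMNA and -0.18 in LMNB1. Of these flanks 19 had an unadjusted p under 0.05 in LMNB2 (8.7% of all tested flanks), and the lowest edgeR adjusted p was 0.0617. Their median log2 level per library was -0.07, 0.01 and 0.04 with GFP, -0.14, -0.11 and -0.14 with LMNA, -0.26, -0.18 and -0.04 with LMNB1, and -0.17, -0.19 and -0.25 with LMNB2. LMNA and LMNB2 libraries lay below all GFP libraries, and 1 LMNB1 library lay within them. These flanks overlap heavily, so their number is not a number of independent measurements. With the replicate number as a block or with DESeq2's test 5 of the 30 flanks were called in LMNB2 (29 and 19 of all 9047 intervals). With total counts 28 were called in LMNB2, 28 in LMNA and 9 in LMNB1. That scaling called 2620 of the 9047 in LMNB2, all lower, and moved the median of all flanks in LMNB2 to -0.13.

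**Figure D5:**
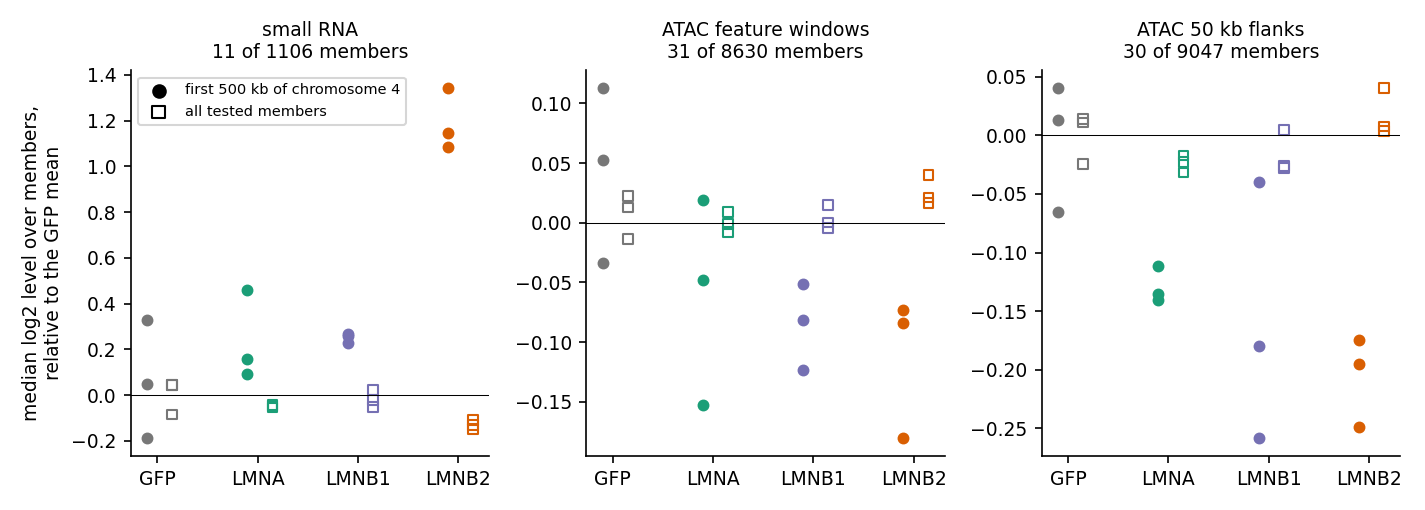
Median log2 level relative to the GFP mean, for each library, of the intervals in the first 500 kb of chromosome 4 (filled circles) and of all tested intervals of chromosomes 4, 13 and 18 (open squares), in small RNA, ATAC windows and ATAC 50 kb flanks on separate scales. In small RNA the filled LMNB2 points stand at 1.08 to 1.34, above every other library, and in the flanks they stand at -0.25 to -0.17, below the GFP points. The filled LMNA points and most of the filled LMNB1 points also lie below GFP in the flanks.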

How the data were processed

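Small RNA and ATAC-seq were measured in HEK293 cells overexpressing eGFP, LMNA, LMNB1 or LMNB2, 3 libraries per group and assay. The authors deposited raw counts, whole numbers whose totals differ between libraries, in a table per assay. Per the submitters' processing notes the build is GRCh38; the aligner, the counter, duplicate handling, shared reads and any shift of ATAC reads are not given in the sources used here. An ATAC window adds 125 bp to either end of a region. Its flanks start 350 bp farther out and measure 500, 5000 or 50000 bp; both sides were summed here. File starts count from 0 and are printed counted from 1.

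All 12 libraries of an assay were fitted together on the whole table in edgeR 4.0.16 (R 4.3.3, limma 3.58.1): filterByExpr, TMM scaling, a mean per group, robust quasi-likelihood tests of each lamin against GFP and of the 3 lamins against each other. Benjamini-Hochberg adjustment ran over every tested region, and calls have an adjusted p under 0.05. Log2 fold changes are edgeR's, with their SE taken from the F statistic. The filter kept 33893 small RNA regions (biological coefficient of variation 0.227) and 163786 ATAC windows (0.0850). For the level of a list per library, log2(CPM + 0.01) minus the GFP mean was taken for each interval and the median used. The scripts were tested on simulated counts. The labels name no molecular identifiers, so limits from 0 counts cover counting error only.

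Named intervals were, for each assay and lamin, up to 8 called intervals with the highest and 8 with the lowest fold change whose 3 lamin libraries lay on one side of GFP, at or above the median level, 1 per locus. Where fewer than 2 were called, the 3 of lowest p were named, and by level the 8 loci of highest small RNA and 5 of highest ATAC CPM per kb, with the short RNAs inside named intervals and a fixed microRNA list. The intervals, lists and tests were chosen with earlier results of these data known. Alternatives were DESeq2 1.42.0, DESeq2's size factors, total counts, other count filters, only the libraries compared, a replicate block, each library left out, a stricter threshold, 1 interval per locus, intervals without a short RNA, and mitochondrial windows left out before scaling.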

Additional observations from a re-analysis of the deposited data

Results flagged for a closer look

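At 10 intervals the 3 lamins differed from each other in small RNA by edgeR's joint quasi-likelihood test, adjusted over all tested regions. The adjusted p was 0.000700 for NONHSAG037195.2, 0.00222 for NONHSAG037191.2, 0.00236 for NONHSAG023148.2, 0.00267 for lnc-ZNF732-9, 0.00420 for lnc-ZNF718-5, 0.00740 for lnc-TUBB8P12-3, 0.0179 and 0.0412 for a pair of lnc-ZNF721-1 intervals, 0.0408 for NONHSAG037205.2 and 0.0485 for lnc-EPSTI1-4. In the first 9 the LMNB2 group mean was highest, and in lnc-EPSTI1-4 that of LMNB1, whose libraries overlap those of LMNA.

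The 5 kb and 500 bp flanks, which lie outside the main measurements, held 5 called differences at 4 intervals. The 5 kb flank of lnc-NAXD-5 (chr13:110429001-110429367) had 0.316, 0.342 and 0.450 CPM in GFP and 0.710, 0.578 and 0.617 in LMNB2 (log2 fold change 0.77, edgeR adjusted p = 0.0492). The 5 kb flank of lnc-UCP1-3 (chr4:140670835-140717807), named after the uncoupling protein gene of brown fat, rose by 0.66 on the log2 scale in LMNB2 (edgeR adjusted p = 0.0246). The 500 bp flank of lnc-COL4A1-1 (chr13:110131974-110133339), named after a basement membrane collagen gene, had 0, 0.0386 and 0.139 CPM with GFP, 0.135, 0.321 and 0.183 with LMNA, 0.267, 0.399 and 0.506 with LMNB1, and 0.451, 0.367 and 0.479 with LMNB2. Its log2 fold change was 2.60 in LMNB1 and 2.75 in LMNB2 (edgeR adjusted p = 0.0308 and 0.00160), on few counts in GFP. The 500 bp flank of lnc-DHX15-1 (chr4:24471217-24472974), named after an RNA helicase of splicing, fell from 7.20, 6.03 and 5.77 CPM in GFP to 4.39, 4.51 and 4.13 in LMNB2 (log2 fold change -0.54, edgeR adjusted p = 0.0363).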

How the results depend on the processing

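Counts of called intervals in small RNA were 0, 0, 22 and 10 for LMNA, LMNB1, LMNB2 and the joint test. With no count filter they were 1, 5, 48 and 33. For LMNB2 and the joint test they were 6 and 6 at an adjusted p under 0.01, 9 and 5 with 1 interval per locus, 1 and 60 with only the libraries compared, and 12 and 6 with total counts. Leaving out each library gave 0 to 6 in LMNA, 0 to 2 in LMNB1, 4 to 53 in LMNB2 and 5 to 29 in the joint test. The replicate numbers paired the libraries weakly at most. In each assay 2 of 18 same-numbered pairs correlated over 0.1, the highest by 0.232 in small RNA and 0.199 in ATAC. Of the 18, 11 in small RNA and 5 in ATAC correlated best with their own number. With the replicate block the LMNB2 and joint counts were 21 and 13.

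In ATAC windows, where 0 were called, total counts gave 3, 3, 1 and 1 in LMNA, LMNB1, LMNB2 and the joint test, DESeq2's test gave 1, 1, 2 and 22, and only the libraries compared gave 1 in LMNB2 and 17 in the joint test. The joint count was 4 with the replicate block and 0 to 45 with a library left out. In 50 kb flanks, where 0, 0 and 1 were called, total counts gave 5243, 1096 and 2620, nearly all lower, as that scaling moved the median of all flanks to -0.16, -0.11 and -0.13. The replicate block gave 5, 8 and 29, DESeq2's test 13, 1 and 19, and a left-out library 0 to 13, 0 to 1 and 1 to 24. The cause of these shifts was not tested.

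Among the named intervals 869 values kept their side of the threshold, 134 lost a call, 12 gained one, and 0 of the called values changed direction. The 11 fallers were called in 11 of 11 with DESeq2's size factors, in 7 of the 9 to which DESeq2 gave an adjusted p, and in 10 with the replicate block. Low counts limit most intervals, since 2919 of 4782 loci had a mean under 1 count.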
